A study of Rattus norvegicus with 4 samples.

Results

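The microRNAs (miRNAs, short RNAs that pair with messenger RNAs and repress them) described here are miR-199a-3p, miR-199a-5p and miR-214, followed through small RNA libraries of rat liver. They were taken by name as the rows rno-miR-199a-3p, rno-miR-199a-5p and rno-miR-214, 3 of the 680 names listed for each sample. The study compared tissue labelled as hepatic fibrosis with tissue labelled as normal liver, 2 samples each. The labels give no strain, age, sex or cause of the fibrosis, and whether replicates are separate animals is not stated. All 680 values of the second fibrosis file and the second normal file are the same. They were counted as 1 library, here the shared library, which carries both labels. The column header inside the second normal file matches no sample's title, while the other 3 headers match their own, so which tissue this library came from was not settled. The data are therefore 3 distinct libraries: replicate 1 of fibrosis (fibrosis 1), replicate 1 of normal liver (normal 1) and the shared library. Every comparison of fibrosis with normal liver below thus has 1 library of known label on each side.

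A miRNA gene is transcribed as a hairpin, whose stem is cut into a duplex of a 5p and a 3p strand, and 1 of these arms is usually kept as the guide while the other is degraded. The miR-199a-2 and miR-214 hairpins lie on the strand opposite to the gene Dnm3 and are made from a shared long transcript, Dnm3os, which the factor Twist1 can activate. In liver both miRNAs are known from mesenchymal cells, including the hepatic stellate cells that make collagen during fibrosis. miR-199a-3p is also known as an abundant miRNA of healthy liver that represses growth genes such as Mtor and Met, miR-199a-5p is known to repress caveolin-1, and miR-214 is known to repress Ccn2 (connective tissue growth factor).

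The mature sequences are shown because the arms differ in the seed, bases 2 to 8 counted from the 5′ end, by which a miRNA finds its targets. All 3 names were found in RefSeq (rat build GRCr8), with rno-miR-214, an older name without an arm, taken as the 3p arm because miR-214* has a row of its own. Seeds are in capitals:
rno-miR-199a-3p: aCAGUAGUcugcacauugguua
rno-miR-199a-5p: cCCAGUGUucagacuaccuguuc
rno-miR-214: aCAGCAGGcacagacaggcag
They lie on the plus strand of chromosome 13, at chr13:77116294-77116315, chr13:77116255-77116277 and chr13:77121713-77121733. The end of miR-199a-3p and the start of the miR-214 hairpin are 5329 bases apart, and both hairpins fall within the span of Dnm3, which is on the minus strand. No other gene of the RefSeq table lies between them. miR-199a-3p and miR-214 open alike and differ within their first 8 bases by U5C and U8G, with the base of miR-199a-3p given first. None of the 3 seeds occurs in another of the 693 mature names of the table, and miRNAs absent from it were not compared. Whether a seed is shared with another name listed for these samples was thus not settled. rno-miR-761, whose seed was not compared with that of miR-214, is listed for these samples and had 0 reads in each library. In the table, the nearest other mature sequence was 8 edits away for miR-199a-3p, 9 for miR-199a-5p and 6 for miR-214. That table thus holds no near-identical relative of these names with which reads could be exchanged. It lists 1 locus for each, and reads of an identical copy that it lacks could not be told apart. Not all reads of a name need therefore come from this cluster.

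The miR-214 hairpin is shown with its arms in capitals, since only 1 of them was seen in these libraries: 
rno-mir-214 hairpin: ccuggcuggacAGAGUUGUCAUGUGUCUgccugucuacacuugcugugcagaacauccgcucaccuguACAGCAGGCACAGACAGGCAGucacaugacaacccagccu
It spans chr13:77121645-77121752 in GRCr8. The first capital run is the RefSeq miR-214-5p, the arm that older names call miR-214*, and the second is miR-214-3p. The hairpin of miR-3120 overlaps it by 106 bases on the opposite strand.

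The deposited values are reads per 1000000 reads (RPM), scaled by the authors to totals of 6951148 reads (fibrosis 1), 7070374 (normal 1) and 6357069 (shared library), which were recovered from the steps in the values. Of these reads, 50.5% to 52.5% fell on listed miRNAs, and the hepatocyte miRNA miR-122 was the most abundant name in each library. Where no read was counted, the limit given is the worth of 3 reads, 0.424 to 0.472 RPM, a 1-sided limit that is narrower than the 2-sided intervals. The 95% exact (Clopper-Pearson) intervals below cover counting error only, since the reads carry no molecular identifiers and 1 molecule can give several reads. Reads of these members cover mature RNAs of 21 to 23 bases, so levels were compared without a length correction.

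miR-199a-3p was among the most abundant miRNAs of each library, and the other 2 members were present at a few RPM. miR-199a-3p stood at 592.0 RPM in fibrosis 1 (574 to 610.4), at 350.5 RPM in normal 1 (337 to 365) and at 903.4 RPM in the shared library (880.2 to 927.1). It was highest in the shared library and lowest in normal 1, and no interval touched another. By rank it was number 15 of 250 detected names in fibrosis 1, number 21 of 239 in normal 1 and number 12 of 236 in the shared library. Its 4115, 2478 and 5743 reads were 0.117%, 0.0678% and 0.172% of the miRNA reads in these libraries. By mean RPM it ranked 14 of 294, between miR-140* at 869.5 RPM and miR-320 at 579 RPM.

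miR-199a-5p, the other arm of the same hairpin, was rare. It stood at 2.01 RPM in fibrosis 1 (1.10 to 3.38), at 2.40 RPM in normal 1 (1.40 to 3.85) and at 1.42 RPM in the shared library (0.647 to 2.69), from 14, 17 and 9 reads. The order of these levels was the reverse of that of the 3p arm, but all 3 intervals overlapped. Its ranks were 123, 122 and 134, near the middle of the detected names. By mean RPM its neighbours were miR-872* above it at 2.02 RPM and miR-126, an endothelial miRNA, below it at 1.84 RPM.

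miR-214 stood at 3.31 RPM in fibrosis 1 (2.10 to 4.96), at 2.55 RPM in normal 1 (1.51 to 4.02) and at 5.66 RPM in the shared library (3.97 to 7.84), from 23, 18 and 36 reads. Like miR-199a-3p it was highest in the shared library and lowest in normal 1, although its interval in fibrosis 1 overlapped both others. The intervals of normal 1 and the shared library overlapped narrowly. Its ranks were 107, 120 and 84. miR-30c and miR-203 were next to it by mean, at 3.84 and 3.83 RPM against 3.84 RPM for miR-214 itself. miR-214*, the 5p arm of the hairpin printed above, had 0 reads in every library, and so had miR-3120 on the opposite strand, where the limit at 3 reads is 0.432 RPM in fibrosis 1, 0.424 RPM in normal 1 and 0.472 RPM in the shared library.

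**Figure D1:**
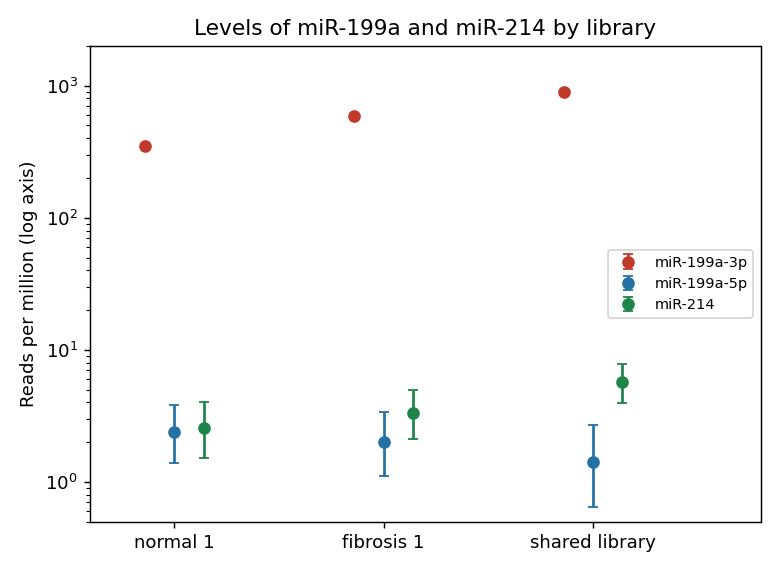
Level of the 3 members in each distinct library, as RPM (log axis), with points for the deposited value and bars for the 95% exact counting interval. miR-199a-3p lies between 350.5 and 903.4 RPM and the other members between 1.42 and 5.66 RPM, with miR-214 above miR-199a-5p in each library.

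The arms of miR-199a were far from equal in each library, with 146 to 638 reads of the 3p arm counted for each of the 5p arm. Whether the library steps captured both arms equally was not measured. Reads of an identical copy at another locus would count under the same name. The ratio is therefore one of names and may not be that of 1 hairpin. There were 294 reads of miR-199a-3p for each read of miR-199a-5p in fibrosis 1 (175 to 538), 146 in normal 1 (90.9 to 251) and 638 in the shared library (336 to 1396). The 3p arm was thus 99.66% of the reads of both arm names together (99.43 to 99.81), 99.32% (98.91 to 99.60) and 99.84% (99.70 to 99.93). The ratio in the shared library was 4.38 times that in normal 1 (exact interval of the odds ratio 1.84 to 11.2), the sole pair of libraries whose interval excluded 1. Fibrosis 1 had 2.02 times the ratio of normal 1 (0.934 to 4.43), and the shared library 2.17 times that of fibrosis 1 (0.874 to 5.69). These intervals compare libraries and not conditions, and each rests on 9 to 17 reads of the 5p arm.

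Few of the hairpins that could be compared differed in arm ratio between libraries beyond counting error. Where reads of the minor arm were few, the intervals were wide and a difference could be missed. Both arms were listed for 259 hairpins, and 89 of them had at least 10 reads over both arms in every library. Between the shared library and normal 1 the interval excluded 1 for 6 of the 57 hairpins with a read of the minor arm, which is 10.5% and includes miR-199a. The others were miR-145, miR-25 and miR-345, with lower ratios in the shared library, and miR-30b and miR-532, with higher ones. These 5 were named because so few passed, after their values were seen. Between fibrosis 1 and normal 1 the interval excluded 1 for 5.36% of 56 hairpins, and between the shared library and fibrosis 1 for 10.7% of 56, in both cases without miR-199a.

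Ratios as uneven as this were not rare in these libraries. Over the 3 libraries together miR-199a had 308 reads of the 3p arm per read of the 5p arm, while the median hairpin with any read of its minor arm had 52.1. By the mean log2 ratio with 0.5 reads added to each arm, 30 of the 89 hairpins were more uneven than miR-199a. let-7b was the most uneven, with 642377 reads against 2. The 3 hairpins nearest to miR-199a on this scale were miR-146b, miR-130a and miR-499, with 510, 466 and 485 reads of the major arm and 0 of the minor, so that their place is set by their depth.

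**Figure D2:**
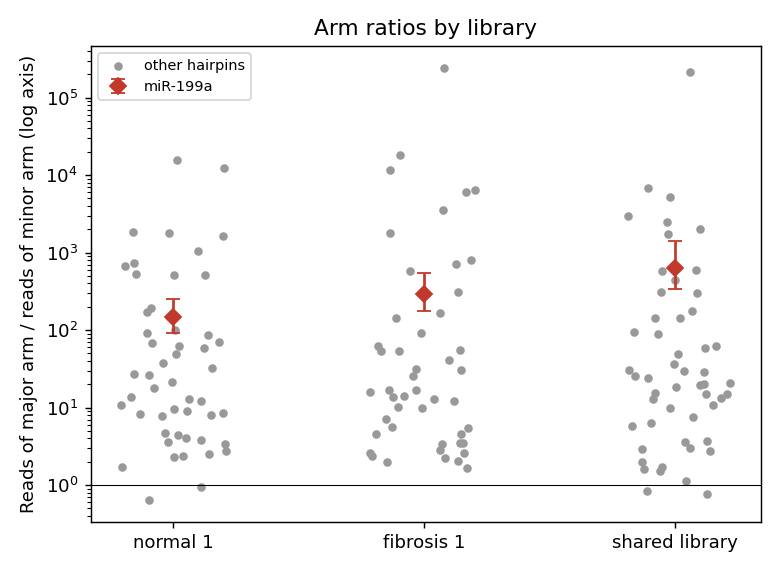
Ratio of the reads of the major arm to those of the minor arm (log axis) in each library, for hairpins with at least 1 read of the minor arm (grey points, spread sideways for visibility) and for miR-199a (diamonds, with 95% exact intervals). miR-199a lies at 146, 294 and 638, with the widest gap between normal 1 and the shared library.

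miR-214 was set against both arms of its cluster partner within each library, where the scaling cancels. There were 179 reads of miR-199a-3p for each read of miR-214 in fibrosis 1 (119 to 283), 138 in normal 1 (86.9 to 233) and 160 in the shared library (115 to 228). The intervals of all 3 libraries overlapped. The odds ratio was 1.30 (0.659 to 2.52) for fibrosis 1 over normal 1, 1.16 (0.618 to 2.10) for the shared library over normal 1 and 0.892 (0.504 to 1.55) for the shared library over fibrosis 1. Differences within those intervals were not detectable at this depth. Against miR-199a-5p, miR-214 had a ratio of 1.64 in fibrosis 1 (0.810 to 3.45), 1.06 in normal 1 (0.515 to 2.19) and 4.0 in the shared library (1.89 to 9.44). That ratio was 3.78 times higher in the shared library than in normal 1 (1.27 to 11.5). Between these 2 libraries the ratios of both miR-199a-3p and miR-214 to miR-199a-5p thus differed beyond counting error. Both results rest on the same reads of miR-199a-5p, 9 in the shared library and 17 in normal 1, and are not independent.

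The question of the study was which miRNAs differ between fibrotic and normal liver. miR-199a-3p was 1.69 times higher in fibrosis 1 than in normal 1 (1.61 to 1.78), at 592.0 against 350.5 RPM. At least 1.5-fold higher values were seen for 5 of the 76 names with a mean of at least 10 RPM in this pair (6.58%) and lower ones for 1 (1.32%), 7.89% in either direction (8 and 0 with TMM scaling, 4 and 3 with upper-quartile factors), and miR-199a-3p was number 4 from the top, against a median ratio of 0.926. miR-214 had a ratio of 1.30 (0.671 to 2.56) and miR-199a-5p of 0.838 (0.382 to 1.81), so neither differed beyond counting error. For comparison, the interval excluded 1 for 35.1% of the 148 names whose mean over all libraries reached 1 RPM. With 1 library on each side these ratios have no replicate check. RNA of whole tissue cannot tell a change in the number of stellate or other cells from a change in the amount per cell.

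The shared library stood further from normal 1 than fibrosis 1 did for each member. Over normal 1 its ratio was 2.58 for miR-199a-3p (2.46 to 2.70), 2.22 for miR-214 (1.23 to 4.16) and 0.589 for miR-199a-5p (0.231 to 1.40). In that pair 8 of 73 names were at least 1.5-fold higher (11.0%), with miR-199a-3p number 2 from the top, and 48.0% of 148 intervals excluded 1. Over fibrosis 1 its ratio was 1.53 for miR-199a-3p (1.47 to 1.59), where 6.94% of 72 names were at least 1.5-fold higher, 1.71 for miR-214 (0.987 to 3.03) and 0.703 for miR-199a-5p (0.268 to 1.74), where 41.9% of 148 intervals excluded 1. If its normal label were right, 2 normal libraries would differ 2.58-fold in miR-199a-3p, and if its fibrosis label were right, 2 fibrosis libraries would differ 1.53-fold. The order shared library, fibrosis 1, normal 1, from high to low, was shared by miR-199a-3p and miR-214 with 14.2% of the 148 names, and the reverse order of miR-199a-5p with 34.5%.

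**Figure D3:**
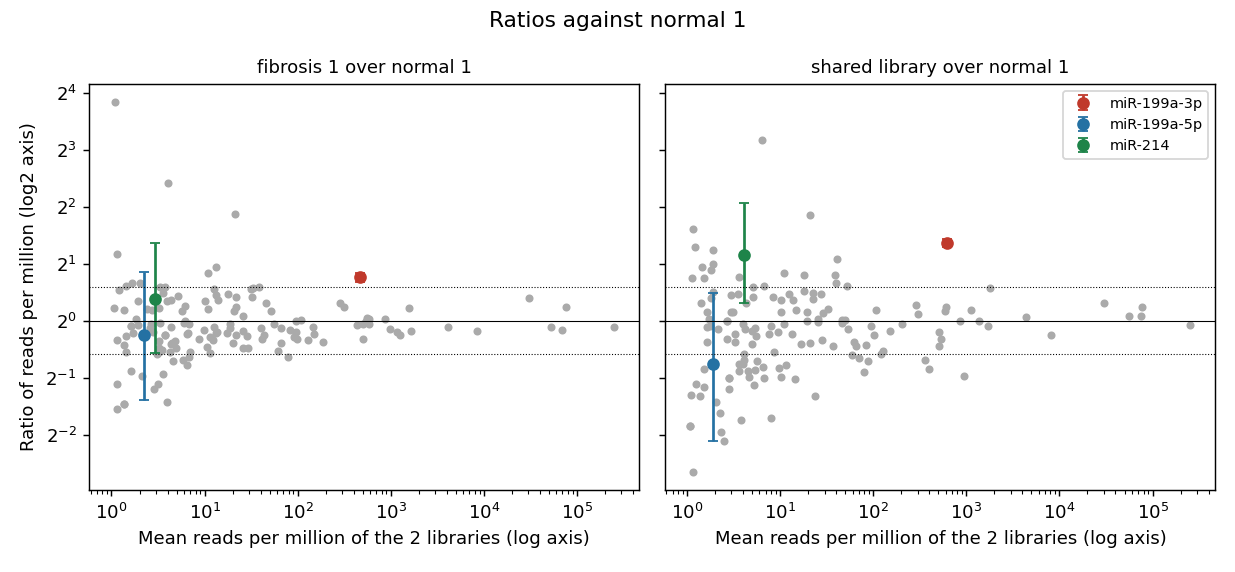
Ratio of RPM to normal 1 (log2 axis) against the mean RPM of the 2 libraries (log axis), for fibrosis 1 on the left and the shared library on the right. Grey points are names with a mean of at least 1 RPM and a ratio above 0, dotted lines mark 1.5-fold, and bars on the members are 95% counting intervals. miR-199a-3p lies at 1.69 and 2.58, above the dotted line, while the bars of miR-199a-5p cross 1 in both panels.

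A test across libraries depended on where the shared library was put. With it counted once as fibrosis, limma on log2(RPM + 1) gave miR-199a-3p a log2 difference, fibrosis over normal, of 1.06 (SE 0.39, adjusted p = 0.576), miR-214 of 0.60 (SE 0.44, adjusted p = 0.723) and miR-199a-5p of -0.34 (SE 0.28, adjusted p = 0.723). With it counted once as normal, limma gave 0.073 for miR-199a-3p (SE 0.87, adjusted p = 0.997), -0.17 for miR-214 (SE 0.62, adjusted p = 0.958) and 0.072 for miR-199a-5p (SE 0.40, adjusted p = 0.962). The direction of miR-214 and of miR-199a-5p thus turned, and the difference of miR-199a-3p was near 0. Both fits assume that the group of 1 library varies as much as the group of 2. Counting the library as fibrosis, the log2 difference without fibrosis 1 and without the shared library was 1.36 and 0.75 for miR-199a-3p, 0.91 and 0.28 for miR-214 and -0.49 and -0.18 for miR-199a-5p, so that no direction turned there. Counting the library as normal, the log2 difference of miR-199a-3p was -0.61 without normal 1 and 0.75 without the shared library, each a value with no test. limma called 0 of 294 names (0.0%) in either layout, with 36 and 27 at an unadjusted p under 0.05. edgeR's quasi-likelihood test on the recovered reads also called 0, with 9 and 1 at an unadjusted p under 0.05, and DESeq2 called 1 (miR-146b, named after its value was seen) and 0.

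With all 4 files as labelled, so that 1 library stands in both groups, limma gave log2 differences of 0.38 for miR-199a-3p (SE 0.24), 0.14 for miR-214 (SE 0.42) and -0.088 for miR-199a-5p (SE 0.42), each with an adjusted p of 1. It called 0 of 294 names (0.0%), with 4 at an unadjusted p under 0.05, and edgeR and DESeq2 called 0 as well, with 1 and 0. In this layout each difference is the mean of the difference between fibrosis 1 and normal 1 and of 0. Its SEs and p-values are set by that construction, so this layout bears on no direction.

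The range of miR-199a-3p over the 3 libraries was wide. Its highest value was 2.58 times its lowest, the second widest spread of the 73 names with a mean of at least 10 RPM after miR-146b, where the median name spread 1.37-fold. The names whose log2 RPM, centred over the 3 libraries, lay nearest to it were miR-142-5p, a blood cell miRNA (distance 0.20 on the log2 scale), miR-24 (0.40), miR-33, which lies in an Srebf gene and represses cholesterol export (0.47), miR-532-5p (0.52) and miR-322* (0.54), of 72 compared. miR-142-5p stood at 39.4 RPM in fibrosis 1, 26.4 RPM in normal 1 and 56.0 RPM in the shared library. miR-24 stood at 37.3, 28.0 and 48.8 RPM in the same libraries, again lowest in normal 1 and highest in the shared library. With 3 libraries this likeness is a description of these libraries only. miR-199a-5p and miR-214 had too few reads to be ranked this way.

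**Figure D4:**
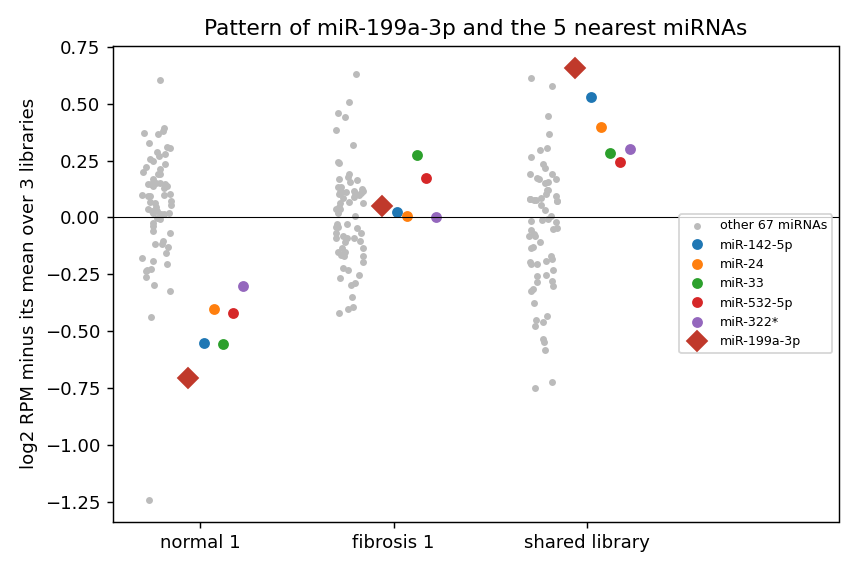
log2 RPM minus its mean over the 3 libraries, for miR-199a-3p (diamonds), its 5 nearest names (coloured points) and the other 67 names with a mean of at least 10 RPM (grey). miR-199a-3p goes from -0.71 in normal 1 to 0.66 in the shared library, and miR-142-5p lies closest to it.

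Other miRNAs of mesenchymal cells lay mostly lower in fibrosis 1, unlike miR-199a-3p. Of the 9 measured (mean of at least 1 RPM) of 11 with a row, 8 lay below 1, as did 64.9% of the 148 names. The counting interval was above 1 for 1 and below 1 for 5, against 12.8% and 22.3% of the 148 names, and the median ratio to normal 1 was 0.839 against 0.915 over those names. miR-152, which represses DNA methyltransferase Dnmt1, was higher at 318.5 against 258 RPM (1.23, 1.16 to 1.31). miR-10a-5p was lower at 89.9 against 103 RPM (0.873, 0.783 to 0.973), and so was miR-143, known from fibroblasts and smooth muscle, at 62.1 against 97.3 RPM (0.639, 0.565 to 0.721). The summed level of the list was 596 RPM in fibrosis 1, 612 RPM in normal 1 and 610.2 RPM in the shared library. More of that sum came from miR-152 in fibrosis 1 (53.4%) than in normal 1 (42.1%), and without it the list summed to 278, 354 and 298 RPM, highest in normal 1. In the shared library the median ratio of this list to normal 1 was 1.01, with 1 interval above 1 and 2 below, where 18.2% and 29.7% of the 148 names lay above and below.

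Other miRNAs known to rise when stellate cells are activated or the liver is scarred lay on both sides in fibrosis 1. Of 9 measured of 10 with a row, 5 intervals lay above 1 and 2 below, against 12.8% and 22.3% of the 148 names, and the median ratio was 1.37 against 0.915. The 5 above 1, of which all but miR-33 were named after their values were seen, were miR-27a at 6.76 against 1.27 RPM in normal 1 (5.31, 2.57 to 12.3), miR-33 (1.78, 1.27 to 2.52), miR-181a (1.47, 1.22 to 1.79), miR-181b (1.47, 1.08 to 2.01) and miR-27b (1.37, 1.06 to 1.78). miR-27a and miR-27b are known for their part in fat storage. The 3 most abundant names of the list had ratios below 1. miR-21, widely linked to fibrosis, stood at 934 RPM against 1042 RPM in normal 1 (0.897, 0.867 to 0.927), miR-31 at 82.1 against 100.3 RPM (0.819, 0.732 to 0.916) and miR-221 at 39.0 against 42.6 RPM (0.916, 0.774 to 1.08). In the shared library the median ratio to normal 1 was 1.13, with 5 intervals above 1 and 1 below, against 18.2% and 29.7% of the 148 names. miR-21 (1.13, 1.10 to 1.17) and miR-31 (1.13, 1.02 to 1.26) lay above 1 there, and miR-221 below (0.732, 0.608 to 0.878).

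Summed markers of 2 other cell types followed the order of miR-199a-3p, although not every leukocyte name did. Taken singly, 14.2% of the 148 names had this order. The 8 leukocyte names summed to 88.6 RPM in fibrosis 1, 55.4 RPM in normal 1 and 108 RPM in the shared library, in the same order as miR-199a-3p. That sum is mainly miR-142-5p and miR-146b, a repressor of inflammatory signalling at 33.7, 9.19 and 33.2 RPM, while miR-146a stood at 7.77, 9.76 and 10.9 RPM. Of the 5 leukocyte names measured, 2 intervals lay above 1 and 1 below in fibrosis 1, against 12.8% and 22.3% of the 148 names. The counts were the same in the shared library, against 18.2% and 29.7%. The 1 below in both was miR-342-3p, named after its values were seen, at 5.32, 8.34 and 4.72 RPM, highest in normal 1. The 2 endothelial names, miR-126 and miR-126*, summed to 7.77, 6.51 and 10.9 RPM, again lowest in normal 1, with 0 of 2 intervals excluding 1 in either library. Their part in the result for miR-199a-3p was not tested.

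Hepatocyte names lay lower in fibrosis 1, where all 7 measured of 8 had intervals below 1 and a median ratio of 0.769, against 22.3% of the 148 names and 0.915. In the shared library 4 of the 7 had intervals below 1, against 29.7%, with a median ratio of 0.942. miR-122 stood at 243915 RPM in fibrosis 1, 263140 RPM in normal 1 and 247931 RPM in the shared library, miR-192 at 7826, 8936 and 7492 RPM and miR-101b at 1141, 1368 and 1353 RPM. The erythroid names miR-451 and miR-144 summed to 2.88 RPM in fibrosis 1, 7.78 RPM in normal 1 and 2.04 RPM in the shared library. This sum was highest where miR-199a-3p was lowest, an order reverse to miR-199a-3p that 34.5% of the 148 names had. The interval lay below 1 for 1 of these 2 names in fibrosis 1 and for 2 in the shared library, against 22.3% and 29.7%. Their values rest on 2 to 41 reads. The 7 epithelial and biliary names summed to 15.5, 16.0 and 12.6 RPM, led by miR-200a, miR-203 and miR-200b at 2.67 to 4.53 RPM, and 0 of the 5 measured had an interval that excluded 1. miR-205 had 0 reads in each library. The part of these cell types in the values of the members was not tested.

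**Figure D5:**
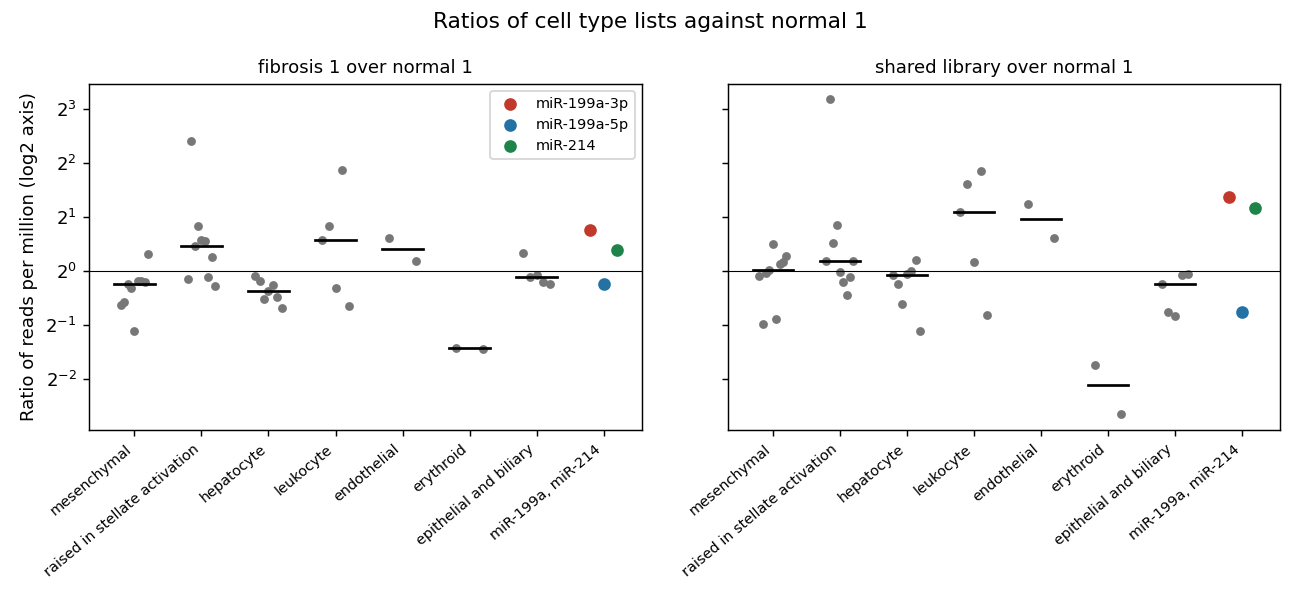
Ratio of RPM to normal 1 (log2 axis) for measured members of each list (grey points, bar at the median) and for miR-199a-3p, miR-199a-5p and miR-214 (coloured), for fibrosis 1 on the left and the shared library on the right. miR-199a-3p lies at 1.69 and 2.58, above the mesenchymal medians of 0.839 and 1.01.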

How the data were processed

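Small RNA libraries were built from total RNA of rat liver with an Illumina kit (per the labels' protocols). CASAVA 1.4 and build rn5 are named in the submitters' processing notes. For the aligner, the miRNA annotation and the handling of multiply matching reads, the setting is not given in the sources used here. The deposited values are RPM computed by the authors. They are not counts, but 100% of the values above 0 were whole multiples of 1 read (within 0.01 reads), which gave the reads and totals used here.

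Ratios between libraries carry 95% exact (Clopper-Pearson) intervals and arm odds ratios exact conditional intervals (Python 3.11.15, scipy 1.17.1, numpy 2.4.6, pandas 2.3.3). Across libraries, limma 3.58.1 (R 4.3.3) was fitted with a mean-variance trend to log2(RPM + 1) of names above 0 in at least 1 library, with Benjamini-Hochberg adjustment at 0.05. In simulated data limma missed most of the names changed 4-fold in the layouts with 3 libraries. The spread between simulated libraries was set and not taken from these samples, so what limma misses here is not known. edgeR 4.0.16 (quasi-likelihood, deposited totals) and, on the same recovered reads, DESeq2 1.42.0 served as alternatives. Other scalings, pseudocounts, filters and leaving out each library were tried. P-values measure only the spread between these samples, which may be technical.

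The members, the lists and the rules for naming miRNAs were chosen with earlier results of these data known. Named are the members, the 5 names of nearest pattern, the neighbours in mean RPM, the 3 most abundant names of each list, and the 3 hairpins of nearest arm ratio with the most uneven 1. miR-218 had no row among those used here. miR-145 of the mesenchymal list was named under arm ratios only. Coordinates are of the RefSeq table (GRCr8) and not of the build the authors name. Plots were drawn with matplotlib 3.10.9.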

Additional observations from a re-analysis of the deposited data

How the results depend on the processing

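Over 5 other scalings (DESeq2 size factors, TMM, upper quartile, the sum of listed miRNAs, and that sum without miR-122) the ratio of fibrosis 1 to normal 1 ran from 1.61 to 1.77 for miR-199a-3p, 1.24 to 1.36 for miR-214 and 0.797 to 0.878 for miR-199a-5p. Adding 0.5 reads to each arm left every arm ratio within its interval. The libraries compared mattered more: miR-199a-3p was at 2.58 for the shared library over normal 1 and turned to 0.655 for fibrosis 1 over the shared library, where miR-214 was at 0.584. The count of names past 1.5-fold, 6 of 76 (5 higher, 1 lower), was 28 of 147 at a minimum mean of 1 RPM (12 higher, 16 lower, so that lower names became the majority) and 2 of 39 at 50 RPM (1 and 1). The 5 higher and 1 lower became 8 and 0 with TMM and with DESeq2 size factors, 8 and 1 with the sum of listed miRNAs, 4 and 3 with upper quartile and 4 and 2 without miR-122.

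Each limma layout called 0 names. Without a filter limma called 1 with the shared library as fibrosis (miR-27a) and 1 with it as normal (miR-138), where limma warned that most variances were 0 and its moderation unreliable, and DESeq2 called 1 in the first layout (miR-146b); these names were looked up after the counts were seen. With the shared library as normal, miR-199a-3p turned to -0.083 by edgeR and -0.10 by DESeq2. Leaving out 1 library gave 0.75 to 1.36 for miR-199a-3p, -0.49 to -0.18 for miR-199a-5p and 0.28 to 0.91 for miR-214 with the shared library as fibrosis, none turning. With it as normal, leaving out 1 gave -0.61 to 0.75 for miR-199a-3p, -0.18 to 0.32 for miR-199a-5p and -0.63 to 0.28 for miR-214. With the 4 files as labelled, where 1 library in both groups sets the values, leaving out 1 gave -0.30 to 1.06 for miR-199a-3p, -0.34 to 0.16 for miR-199a-5p and -0.31 to 0.60 for miR-214. The cause was not tested. With the replicate number as a block, the 4-file fit gave 0 calls, with 0 at an unadjusted p under 0.05, and log2 differences of 0.38, -0.088 and 0.14 for miR-199a-3p, miR-199a-5p and miR-214 (limma adjusted p = 0.602, 0.654 and 0.602). The numbers only name samples, and the block of number 2 holds 1 library on both sides. The 9 to 36 reads of miR-199a-5p and miR-214 limit what can be seen of them.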
